A study of Mus musculus with 1 sample.

Results

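Receptor tyrosine kinases outside the ERBB family were examined in cultured mouse lung cancer cells. They were taken as the 36 genes of a named list, and all 36 were measured, by 92 of the 34945 probe sets that name a single gene. These genes stand among 18194 genes measured on the array. The only group was a cell line labelled KR Primary, derived from a KR tumor (strain B6/J). KR is not spelled out by the labels, and the series title calls the lines kras tumor-derived. The cells were grown in serum-containing RPMI1640 medium and collected near confluence. The data analysed here were 1 sample on 1 Affymetrix array, so no value has a replicate error, no test between conditions was possible, and the measurements describe 1 sample of 1 line.

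Receptor tyrosine kinases are single-pass membrane proteins. An extracellular ligand brings receptor chains together, the intracellular kinase domains phosphorylate each other on tyrosine, and the phosphotyrosines recruit adaptors that lead to RAS, PI3 kinase and phospholipase C signalling. In lung epithelium MET receives hepatocyte growth factor made by neighbouring mesenchyme, FGFR2 receives fibroblast growth factors during branching, and in lung cancers MET, AXL, RET, ALK and ROS1 are known as drug targets. An array of this kind measures their transcripts and not the proteins or their phosphorylation.

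Each signal is the brightness of a probe set in arbitrary fluorescence units. The same amount of RNA can give different brightness on different probe sets, so a signal was read against background and not against the signal of another gene. Background came from 126 probe sets of olfactory, vomeronasal, bitter taste and keratin-associated genes. The 95th percentile of their signals, 16.8, is called the line, and their highest signal, 60.6, the upper limit. The second highest was 42.2, so the upper limit rests on 1 probe set. A gene was taken by its highest probe set.

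The sample carried epithelial transcripts. All 8 epithelial markers passed the upper limit, with the simple-epithelial keratins Krt18, Krt8 and Krt7 at 7600.2, 7422 and 5723, Cdh1, encoding E-cadherin, at 4070, and the lowest, Epcam and Cldn4, at 3219 and 1150.2. The lung markers Nkx2-1, Sftpc, Scgb1a1 and Ager read at most 7.66, 21.1, 1.38 and 12.4. Of these 4 only Sftpc passed the line, on 1 of 2 probe sets with the other at 5.49, and none passed the upper limit.

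Of the 36 receptor genes, 20 were above the line and 9 exceeded the upper limit. Leaving keratin-associated genes out of the background lowered the upper limit to 19.2, which 19 receptor genes exceeded. A line at the background median plus 3 scaled median absolute deviations, both of log2 signals, lay at a signal of 94.6 and was exceeded by 9. Among all measured genes, 63.3% were above the line and 47.5% exceeded the upper limit, both as first defined. No such shares were computed for the limit of 19.2 or the line of 94.6. The median signal of the receptor genes was 24.0, beside 48.3 over all measured genes. By single probe sets, 39 of the 92 receptor probe sets (42.4%) passed the line, beside 60.9% of all single-gene probe sets. Genes with more probe sets have more chances to pass. Of 13 receptor genes with 1 probe set 5 passed the line, beside 48.3% of all such genes. With 2 probe sets 7 of 10 passed, beside 72.4%, and with 3 probe sets 5 of 7, beside 82.3%. The only receptor gene with 4 probe sets, Flt1, did not pass, beside 87.5% of such genes that did. With 5 or more, 3 of 5 passed, beside 90.9%.

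**Figure D1:**
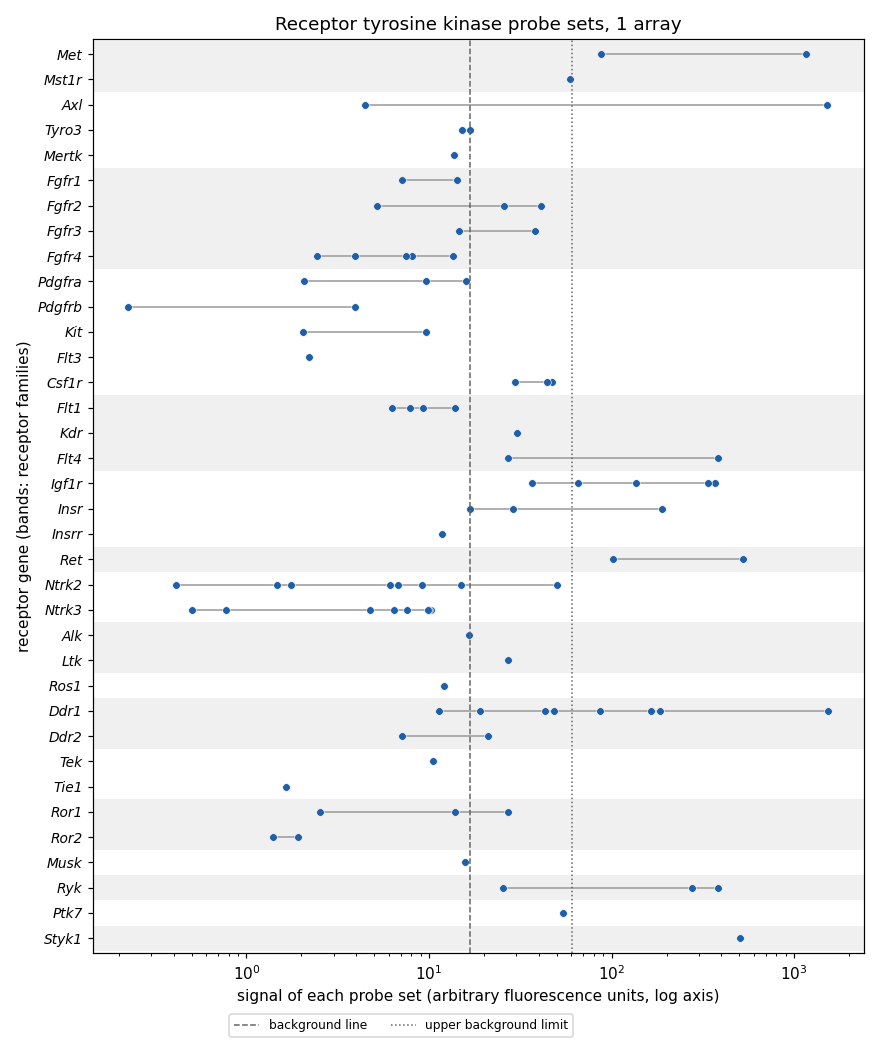
Signal of every probe set (horizontal log axis, arbitrary fluorescence units) for the 36 receptor genes, with shaded bands marking receptor families; each point is 1 probe set, the grey bar spans the probe sets of a gene, and the vertical lines are the background line (16.8) and the upper background limit (60.6). The 9 genes that reach past the upper limit are Met, Axl, Flt4, Igf1r, Insr, Ret, Ddr1, Ryk and Styk1, and for Axl, Ddr1 and Insr the points lie on both sides of the line.

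Met, the receptor for hepatocyte growth factor, read 1167 and 87.3 on its probe sets, both above the upper limit. Its relative Mst1r, the receptor for macrophage-stimulating protein also called RON, read 59.2 on a single probe set, just under the upper limit. Both members of the family therefore passed the line. Axl, a TAM receptor that binds GAS6, read 1512 on its first probe set and 4.475 on its second. The second, whose name ends in _x_at, is of a type that may match several transcripts, and the probe sets lie 8.40 log2 units apart. The cause of this difference was not tested. Of the other TAM receptors, Tyro3 read 16.9 and 15.1, on either side of the line, and Mertk, which takes part in the uptake of dead cells, read 13.7, below it.

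Ret, the receptor for the GDNF family, read 528 and 101 and passed the upper limit on both probe sets. Its ligand-binding co-receptors, the GFRA proteins, are described with the ligands below. Ddr1, a collagen receptor of epithelial cells, read 1543, 185, 165, 86.2, 48.6, 43.3, 19.1 and 11.3. Of these 8 probe sets 7 passed the line and 4 the upper limit. The brightest is an _x_at probe set; among the 3 probe sets without that ending the highest was 165. Ddr2, the collagen receptor known from mesenchymal cells, read 21.0, above the line, and 7.10, below it.

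The insulin receptor family was divided by member. Igf1r, the receptor for insulin-like growth factors, read 369, 337, 137, 65.1 and 36.5, and all 5 probe sets passed the line. No other receptor gene with 5 or more probe sets had all of them above the line. Insr, the insulin receptor, read 189, 28.8 and 16.8, the last just below the line. Insrr, the insulin receptor-related receptor, read 11.8 and did not pass.

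Ryk, a WNT-binding receptor whose kinase domain is regarded as inactive, read 382, 276 and 25.5. Styk1, which encodes a kinase with a transmembrane segment and only a very short outer part, read 507 on its only probe set. Ptk7, another receptor with an inactive kinase domain that takes part in planar cell polarity, read 54.0, between the line and the upper limit. In the ROR family of WNT5A receptors, Ror1 read 27.0, 13.8 and 2.54 and passed the line on 1 of 3 probe sets, while Ror2 read 1.91 and 1.40.

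Among the VEGF receptors, Flt4, known as the VEGFR3 of lymphatic endothelium, read 382 and 27.2, and both probe sets passed the line. Kdr, the VEGFR2 that carries most of the VEGF-A signal in blood vessels, read 30.3. Flt1, the VEGFR1 that also binds PGF, read 13.9, 9.29, 7.92 and 6.27, all below the line. Tek and Tie1, the angiopoietin receptor and its partner in endothelium, read 10.5 and 1.64. Endothelial markers on the same array exceeded the line in 3 of 7 genes and the upper limit in 1. Their highest signals ranged from 4.12 to 111, with Egfl7 at 111, Esam at 18.3, Cdh5 at 17.4, Pecam1 at 14.3, Cldn5 at 6.75 and Vwf at 4.12. Whether endothelial RNA contributed to the Flt4 or Kdr signal was not tested.

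The receptors of mesenchymal and blood cells were mostly not above the line. Pdgfra and Pdgfrb, the platelet-derived growth factor receptors of fibroblasts and mural cells, read at most 15.9 and 3.95. Kit, the stem cell factor receptor, read 9.59 and 2.04, and Flt3, a receptor of blood progenitors, read 2.21. Csf1r, the macrophage growth factor receptor, was the exception in this family, at 47.1, 44.3 and 29.4, so that all 3 probe sets exceeded the line but not the upper limit. Fibroblast and mural markers exceeded the line in 3 of 10 genes and the upper limit in none, with highest signals from 1.30 to 25.1. Acta2, Cspg4 and Col1a2 were highest at 25.1, 23.2 and 19.3, and Col3a1 and Postn lowest at 7.0 and 1.30. Leukocyte markers passed the line in 1 of 9 measured genes, Cd68 at 69.8, with highest signals from 3.34 to 69.8. Adgre1 and Cpa3 followed at 15.6 and 14.3, Ptprc, the pan-leukocyte protein CD45, read at most 11.5, and Itgam and Cd3e were lowest at 4.87 and 3.34. Whether leukocyte RNA contributed to the Csf1r signal was not tested.

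No fibroblast growth factor receptor reached the upper limit of 60.6. Fgfr2, the receptor of branching lung epithelium, read 40.8, 25.6 and 5.22. Fgfr3 read 38.0 and 14.6. Both genes exceeded the limit of 19.2 that held without keratin-associated genes in the background. All 3 probe sets of Fgfr1 were below the line, at 14.3, 14.2 and 7.08, and so were all 5 of Fgfr4, from 2.44 to 13.6.

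Ntrk2, Ntrk3 and Musk are receptors known mainly from the nervous system and muscle. Ntrk2, the BDNF receptor TRKB, read 50.4 on 1 of 8 probe sets, and the others lay between 0.413 and 14.9. Ntrk3, the NT-3 receptor TRKC, was below the line on all 8 probe sets, from 0.503 to 10.2. Musk, which organises the neuromuscular junction, read 15.8. Of the lung cancer drug targets named at the start, Alk read 16.5 and Ros1 read 12.1, neither above the line. The others, Met, Axl and Ret, passed the upper limit, as given above. Ltk, the relative of Alk, read 27.0. Neural and Schwann cell markers passed the line in 1 of 6 measured genes, Syt1 at 33.7, with Gfap at 15.8, Elavl4 at 8.17, Sox10 at 4.57 and Snap25 at 2.16.

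Probe sets of the same gene often differed. In 9 of the 23 receptor genes with 2 or more probe sets, some passed the line and others did not, as in 32.9% of all such genes on the array. In 6 of the 23 every probe set passed and in 8 none did. Within a receptor gene the log2 signals of its probe sets had a median SD of 1.58, beside 1.45 over all genes with 2 or more probe sets. This spread mixes probe brightness and transcript variants with noise and is not a replicate error. Taken by the median log2 signal of its probe sets, Insr, at 28.8, was the only one of the 9 genes past the upper limit that no longer exceeded it. For Axl and Flt4, with 2 probe sets each, that median is the midpoint of a bright and a dim probe set, at 82.3 and 102, and the dim one was below the upper limit in both.

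**Figure D2:**
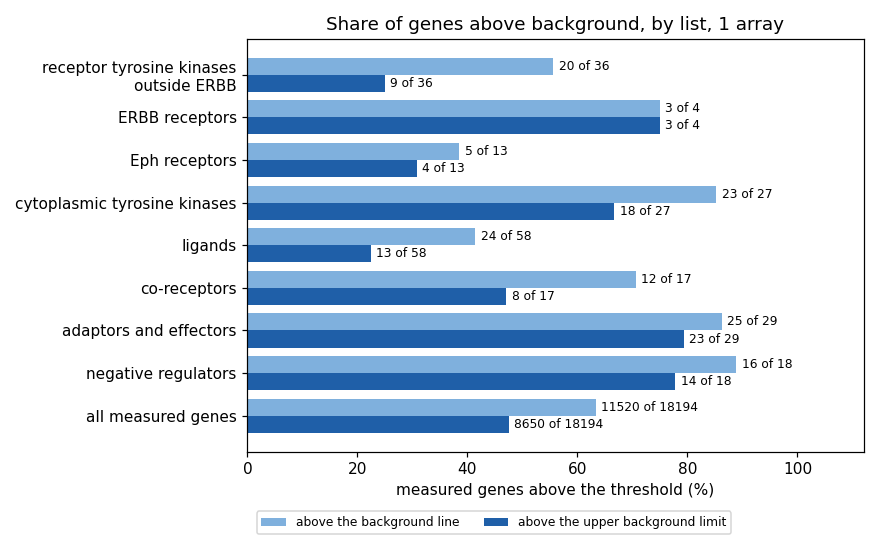
Percent of measured genes above the background line (light bars) and above the upper background limit (dark bars) for each gene list, with the counts printed at the bars. The receptor tyrosine kinases outside the ERBB family passed in 20 and 9 of 36 genes, all measured genes in 11520 and 8650 of 18194.

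Other tyrosine kinases were set beside these receptors by their counts. Of the 4 ERBB receptors 3 passed both thresholds: Erbb3, the partner of ERBB2 in neuregulin signalling, at 736, Egfr at 303 and Erbb2 at 109, with Erbb4 at 4.97. The other Erbb3 probe set read 3.95, and of 7 Egfr probe sets 6 passed the line and 3 the upper limit. Of 13 measured Eph receptors 5 passed the line and 4 the upper limit, with Epha2 at 1486, Epha4 at 605 and Ephb3 at 318, and with Ephb6 at 3.37 and Epha10 at 2.51. Of 27 measured cytoplasmic tyrosine kinases 23 passed the line and 18 the upper limit, with Tnk2 at 1125, Jak2 at 544 and Jak1 at 353, and with Ptk6 at 5.20 and Txk at 1.47. These shares were not tested against each other, because genes on 1 array are not replicates.

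For the promoters, windows running from 250 bases before to 50 bases after a RefSeq transcription start were available for 28 of the 36 genes (build GRCm38.p6). A gene was called CpG-rich if the observed over expected CpG of at least 1 window was 0.6 or more. Of 16 CpG-rich receptor genes 10 exceeded the line and 5 the upper limit, and of 12 CpG-poor ones 6 and 1 did. Over all measured genes with a window, 82.9% of CpG-rich and 38.2% of CpG-poor genes passed the line, and 68.4% and 20.7% the upper limit. The letters GGGCGG on either strand, the GC box, were in 24 of 34 receptor windows (70.6%), beside 35.7% of all 32851 windows. TATAAA on either strand was in 3 of 34 (8.82%), beside 13.6% of all windows, and TGANTCA, the AP-1 element, in 3 of 34 (8.82%), beside 7.81%. The 34 receptor windows came from 28 genes, so that Ddr1 and others count more than once, and the Kit windows overlap. The 32851 windows were not limited to measured genes, so these shares rest on unlike sets. The receptor gene of the CpG-poor class that passed the upper limit was Axl. Insr, Ret and Styk1, also past the upper limit, had no window. Ddr1 was called CpG-rich by 1 window, at 0.895, and its others were at 0.347, 0.289 and 0.388.

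The 250 bases before the start are shown for 3 genes, named after their values were seen, because promoter class and signal combine differently in them: Met is CpG-rich with signal at 1167, Axl is CpG-poor with signal at 1512, and Ror2 is CpG-rich with its highest signal at 1.91. They are given 5′ to 3′ on the strand of the gene, with each GC box (GGGCGG or its complement CCGCCC) in capitals. The Met window lies at chr6:17463707-17463956 on the plus strand and holds 3 GC boxes and 24 CpG. The Axl window lies at chr7:25788734-25788983 on the minus strand and holds 1 GC box and 5 CpG. The Ror2 window lies at chr13:53286125-53286374 on the minus strand and holds 4 GC boxes and 24 CpG. A match is a description of the letters and not a site of binding.
Met: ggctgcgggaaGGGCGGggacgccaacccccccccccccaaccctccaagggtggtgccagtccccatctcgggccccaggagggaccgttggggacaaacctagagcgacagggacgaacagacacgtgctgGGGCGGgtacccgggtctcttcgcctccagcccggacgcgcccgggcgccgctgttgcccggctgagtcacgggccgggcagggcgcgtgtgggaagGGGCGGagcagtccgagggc
Axl: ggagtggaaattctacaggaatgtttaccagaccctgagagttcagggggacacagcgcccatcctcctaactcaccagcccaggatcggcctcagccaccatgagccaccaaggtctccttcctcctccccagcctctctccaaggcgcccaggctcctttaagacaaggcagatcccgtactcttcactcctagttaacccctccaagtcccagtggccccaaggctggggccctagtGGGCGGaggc
Ror2: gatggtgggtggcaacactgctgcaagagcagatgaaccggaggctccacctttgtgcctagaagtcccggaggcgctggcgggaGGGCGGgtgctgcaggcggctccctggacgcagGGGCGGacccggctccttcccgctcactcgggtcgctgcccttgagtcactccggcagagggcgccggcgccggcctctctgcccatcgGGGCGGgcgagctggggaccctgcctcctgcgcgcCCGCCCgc

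**Figure D3:**
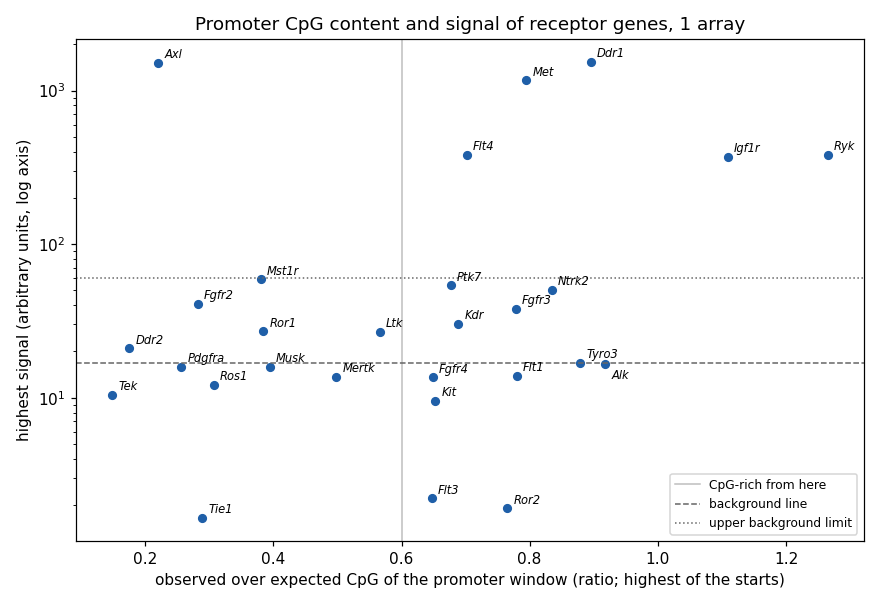
Observed over expected CpG of the promoter window (horizontal axis, ratio, the highest of a gene's starts) and highest signal (vertical log axis, arbitrary units) for the 28 receptor genes with a window; each point is 1 gene, the horizontal lines are the background thresholds and the vertical line marks the ratio of 0.6. Met, Ddr1, Flt4, Igf1r and Ryk lie right of the vertical line and above the upper limit, Axl lies left of it and above the limit, and Ror2 and Flt3 lie right of it at the bottom.

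Ligands were measured for 58 of 64 listed genes. Of these, 24 (41.4%) passed the line and 13 (22.4%) the upper limit, beside 63.3% and 47.5% of all measured genes. The ligands of the receptors with clear signal were not all present. Hgf, the MET ligand, read at most 6.66, and Mst1, the ligand of MST1R, read 11.9. Of the ligands of the insulin receptor family, Igf1 read at most 14.9, Igf2 7.57 and Ins2 15.1, so none passed. Of 4 measured RET ligands only Nrtn, at 26.1, passed the line, while Gdnf read 2.26, Artn 1.51 and Pspn 11.7.

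Both TAM ligands passed the line on their highest probe set and neither the upper limit. Gas6, the AXL ligand, read 30.6 and 7.66, and Pros1, the other TAM ligand, 19.2. Col4a1 and Col4a2, the basement membrane collagens, read 826 and 631, while the fibrillar collagen genes Col5a1, Col1a2, Col1a1 and Col3a1 read at most 26.8, 19.3, 10.4 and 7.0. Of these 4 the first pair passed the line.

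Several ligands passed the upper limit while their main receptors did not. Vegfa, the main angiogenic factor, read 459 and 201, Pgf, the placental growth factor, 734, and Vegfb 201, but Vegfc and Vegfd, the ligands of FLT4, read 8.19 and 12.8. Kitl, the ligand of KIT, read 377 on the highest of 4 probe sets, all above the line. Pdgfb, Pdgfa and Pdgfc, ligands of the PDGF receptors, read 247, 166 and 128. Bdnf and Ntf5, ligands of TRKB, read 155 and 116. Agrn, encoding agrin, the nerve-derived activator of MuSK at the synapse that is also found in basement membranes, read 1312 and 29.3.

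Of 18 fibroblast growth factors 4 passed the line and 1, Fgf1 at 78.9, the upper limit, and the lowest was Fgf20 at 0.552. Of the angiopoietins none of 3 passed, with Angpt4 at 14.2, Angpt2 at 13.4 and Angpt1 at 4.65. Wnt5a, the ligand of the ROR receptors, read at most 23.0. The other 3 listed WNT genes, Wnt11, Wnt5b and Wnt3a, read at most 9.06, 8.11 and 3.54 and did not pass the line. Nell2, a ligand of ROS1, read 7.23.

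**Figure D4:**
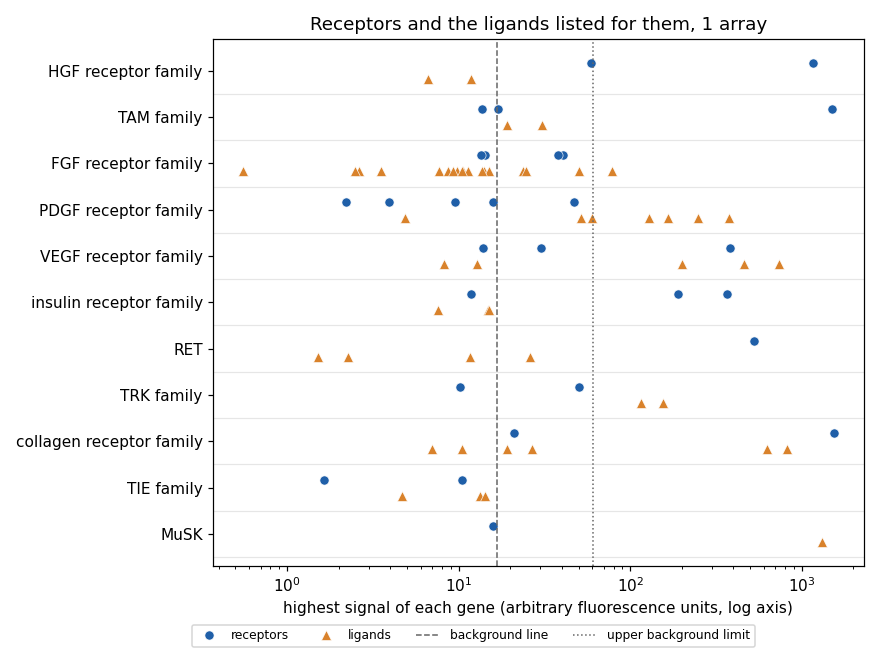
Highest signal of each gene (horizontal log axis, arbitrary fluorescence units) for receptors (circles) and the ligands listed for them (triangles) in 11 receptor families; the vertical lines are the background line and the upper background limit. The HGF receptor, TAM and insulin receptor families and RET have a receptor past the upper limit and no ligand there, whereas the FGF receptor, PDGF receptor, TRK and MuSK rows have a ligand past it and no receptor.

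Proteins that process or assist the ligands were measured for HGF, IGF and heparin-bound factors. Hgfac and St14, proteases that can activate HGF, read 987 and 1002, and Hpn, another such protease, 9.77. Their inhibitors Spint2 and Spint1 read 3667 and 1525, and Plau and Klkb1 read 29.2 and 1.72. Of 7 IGF binding proteins 5 (71.4%) passed the line and 3 (42.9%) the upper limit, beside 63.3% and 47.5% of all measured genes. Igfbp3 read 1986 and 1942, Igfbp7 read 1907 on 1 of 3 probe sets with a median of 26.7 over them, and Igfbp4 read at most 205, while Igfbp2 and Igfbp1 read 4.40 and 2.06.

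Of 17 co-receptors 12 (70.6%) passed the line and 8 (47.1%) the upper limit, beside 63.3% and 47.5% of all measured genes. Sdc1 and Sdc4, cell-surface proteoglycans that hold heparin-binding ligands, read 4427 and 1553, and Cd44, which presents HGF to MET in some cells, 2545. Igf2r, which clears IGF2, read 677, Nrp1, a VEGF co-receptor, 293 and Plxnb1, a semaphorin receptor that associates with MET, 115. Of the GFRA co-receptors of RET, Gfra2, Gfra3 and Gfra4 read at most 53.4, 28.3 and 23.4 and passed the line, while Gfra1, the GDNF receptor, read at most 11.0. Gfra2 passed on only 1 of 5 probe sets, with a median of 9.58 over them. Klb and Kl, the klotho co-receptors of the endocrine FGF hormones, read 10.7 and 4.43.

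Of 29 measured adaptors and effectors 25 (86.2%) passed the line and 23 (79.3%) the upper limit, beside 63.3% and 47.5% of all measured genes. Crk, an adaptor of focal adhesions and of MET signalling, read 1644, Dok2, a docking protein known from blood cells, 740 and Irs1, the docking protein of the insulin and IGF1 receptors, 630. Ptpn11, the phosphatase SHP2 that links receptors to RAS, read 616, Grb2, the adaptor that brings SOS to receptors, 489 and Gab1, the docking protein of MET, 77.3. The lowest were Irs4 at 9.57 and Shc3 at 7.27.

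Of 18 negative regulators 16 (88.9%) passed the line and 14 (77.8%) the upper limit, beside 63.3% and 47.5% of all measured genes. Ptprf, a receptor-type phosphatase, read 1599, Ptpn2 and Ptpn1, phosphatases that act on insulin and MET receptors, 818 and 611. The ubiquitin ligases Cblb, Cbl and Cblc, which send active receptors to degradation, read 300, 291 and 233. Lrig1, an inhibitor of several receptors, read 197, and Grb10 and Lrig3 read 11.7 and 8.68.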

How the data were processed

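Per the labels' protocols, Trizol-extracted total RNA of 1 sample was turned into biotin-labelled cRNA for an Affymetrix array. The authors deposited 1 linear intensity for each probe set. The submitters' processing notes name Affymetrix Expression Console. Its algorithm, version and background correction were not given in any source used. Intensities ran from 0.0591 to 8928, and their precision is limited by the single array. Probe sets were named from the platform annotation, with symbols updated through RefSeq gene IDs (GRCm38.p6) for 34741 of 34945 single-gene probe sets. The 932 that name several genes and the 9160 without a name were left out. Background was the 95th percentile of 126 probe sets, and no test was made. The calling code was tested on simulated data. Alternatives changed the percentile, the background genes, the probe sets admitted, the rule combining probe sets and the way the line is set. All receptor genes are named, and of each other list the 3 highest and 2 lowest genes, with ligands above the upper limit or of receptors above it. Further adaptors, co-receptors and regulators (Grb2, Gab1, Ptpn11, Igf2r, Nrp1, Plxnb1, Gfra1 to Gfra4, Cbl, Cblb, Cblc and Lrig1), the markers Cdh1, Pecam1 and Ptprc and the remaining ligands were named after their values were seen. The receptor genes, lists and background were chosen with earlier results of these data known, and the lung markers were added last. Protein sequences were not used here. Promoter windows are from RefSeq. Python 3.11.15, numpy 2.4.6, pandas 2.3.3 and matplotlib 3.10.9 were used.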

Additional observations from a re-analysis of the deposited data

Results flagged for a closer look

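Probe sets that name several genes were left out of the gene values, and 3 of those naming a ligand, adaptor or kinase of the lists passed the background line, which is why they are given here. A probe set naming Rpl13a and Flt3l gave 25.4. A probe set naming Jak3 and Insl3 gave 66.5, and another naming the same genes 6.45. A probe set naming Ifi30 and Pik3r2 gave 17.6. Their signal cannot be assigned to either gene, and its cause was not tested. No such probe set named a receptor gene of the list.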

How the results depend on the processing

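Under 6 alternatives, 21 of the 36 receptor genes stayed on the same side of the line, 9 above and 12 below, and 15 changed side at least once. These changes follow from the settings. The line lay between 14.1 and 94.6, and in some settings a gene was taken by its median or without some probe sets. The number above the line was 24 at the 90th percentile, 15 at the 99th, 23 without keratin-associated background genes, 16 by the median over probe sets, 19 without _x_at and _s_at probe sets and 9 with a line at the background median plus 3 scaled median absolute deviations. That line, computed on log2 signals, was at a signal of 94.6, which is above the upper limit. The number above the upper limit was 19 without keratin-associated genes, whose removal lowers the limit to 19.2, and 8 by the median over probe sets. Shares over all measured genes were not computed under these alternatives, so these counts have none beside them. Distances from the line that changed sign are given on the log2 scale. At the 90th percentile Fgfr1 was at 0.015, Pdgfra at 0.17, Alk at 0.23 and Musk at 0.16. At the 99th Tyro3 was at -1.13, Kdr at -0.29, Ltk at -0.45, Ddr2 at -0.81 and Ror1 at -0.45. Without keratin-associated genes Pdgfra was at 0.081, Alk at 0.13 and Musk at 0.072. By the median Tyro3 was at -0.074, Ntrk2 at -1.38, Ddr2 at -0.46 and Ror1 at -0.28. Without _x_at and _s_at probe sets Tyro3 was at -0.0058. With the median-based line Mst1r was at -0.68, Tyro3 at -2.49, Fgfr2 at -1.21, Fgfr3 at -1.32, Csf1r at -1.01, Kdr at -1.64, Ntrk2 at -0.91, Ltk at -1.81, Ddr2 at -2.17, Ror1 at -1.81 and Ptk7 at -0.81. Counts of other lists that moved by over 1.5 times were as follows. At the 90th percentile 3 leukocyte and 2 neural markers passed. At the 99th 3 IGF binding proteins, 1 endothelial, 0 fibroblast, 0 neural and 0 lung markers passed. Without keratin-associated genes 2 leukocyte and 2 neural markers passed, and by the median 0 fibroblast, 0 neural and 0 lung markers. With the median-based line 12 ligands, 3 IGF binding proteins, 3 Eph receptors, 14 cytoplasmic kinases, 1 endothelial marker and 0 fibroblast, leukocyte, neural and lung markers passed. Signals near the line carry little information on amount.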

Other observations

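The nearest measured genes on either side of a receptor gene, in the RefSeq gene order of GRCm38.p6, give its neighbourhood. Around Met, Cav2 and Cav1, encoding caveolins, gave 4889 and 1061, Capza2, encoding an actin-capping subunit, 2533 and St7 143, while Wnt2 and D830026I12Rik gave 4.74 and 6.34. The 9 receptor genes past the upper limit had 51 different measured neighbours, of which 25 (49.0%) exceeded it, beside 47.5% of all measured genes. Of the 18 receptor genes examined, Ryk had the most such neighbours, 5 of 6, and Igf1r and Styk1 the fewest, 1 of 6 each, which for Styk1 was Ybx3 at 4777.

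Some receptor genes lie side by side. Pdgfra, Kit and Kdr gave 15.9, 9.59 and 30.3, next to Chic2 at 1716 on one flank, Srd5a3 at 286 and Tmem165 at 1546 on the other, and Gsx2 at 4.10 between Chic2 and Pdgfra. Flt3 and Flt1, at 2.21 and 13.9, flank Pan3 at 180.1, and Pomp, next to Flt1, gave 1525. Pdgfrb and Csf1r, at 3.95 and 47.1, adjoin Hmgxb3 at 190 on the Csf1r flank and Cdx1 at 1.65 on the Pdgfrb flank.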
